A study of Mus musculus with 12 samples.

Results

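Epcam+ tumour cells of 2 origins were compared in mouse squamous cell carcinoma: 2 samples of Lgr5 Epcam+ cells, from tumours that the labels assign to the hair follicle, against 1 sample of K14 Epcam+ cells, which the labels assign to the interfollicular epidermis. The samples were chosen by their labels and are 3 of the 6 samples, and 6 of the 12 sequencing runs, of an ATAC-seq series, in which the Tn5 transposase marks open chromatin. Lgr5 Epcam+ tumours carried Lgr5CreER, which is active in hair follicle stem cells, and the K14 Epcam+ tumour carried K14CreER, whose promoter is active in basal keratinocytes of the epidermis and also of the follicle, so that its genotype alone does not fix an interfollicular origin. Every tumour sample also carried p53fl/fl and Rosa-YFP+/+. The other samples used here were 1 of Lgr5 Epcam- cells from tumours of the Lgr5CreER genotype and 2 of normal wild-type cells, HF (hair follicle) and IFE (interfollicular epidermis). All animals were female and of mixed strain, and the labels give no age and do not say whether a sample pooled animals. Cells were sorted with antibodies to CD45, CD31, CD140a and Epcam.

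The hair follicle bulge holds stem cells marked by Lgr5, Lhx2, Sox9 and Krt15, while the interfollicular epidermis is renewed by basal cells that make keratins 5 and 14 and turn on keratins 1 and 10 as they leave the basal layer. Squamous carcinomas can start in either compartment, and their cells can lose Epcam and epithelial adhesion as they pass through an epithelial to mesenchymal transition driven by Snai, Twist and Zeb factors. The title of the study asks whether the chromatin of the cell of origin prepares a tumour for that transition, and the comparison of the 2 Epcam+ origins bears on what differs while the cells are still epithelial.

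Counts over 177240 peaks summed to 62941406 in Lgr5 Epcam+ sample 1, 45718546 in sample 2 and 39179299 in K14 Epcam+. The share of aligned entries that fell in peaks was 47.2% and 41.9% in the Lgr5 Epcam+ samples, against 35.6% in K14 Epcam+. The single-end run of K14 Epcam+ held 11.1% of its peak counts on chromosomes 15 to Y, against 19.05% in its paired-end run, so those chromosomes were read from paired-end runs alone and chromosomes 1 to 14 from the sum of both runs. Whether the pair of Lgr5 Epcam+ samples came from separate animals is not stated, so p-values rest only on how far these 2 samples differ, possibly for technical reasons, and the lone K14 Epcam+ sample is assumed to vary as they do. That spread was mostly pooled over peaks: the median prior degrees of freedom was 12.4 on chromosomes 1 to 14, against 1 residual. On the other chromosomes it was infinite, so most peaks there took only the pooled spread. In bulk cells, fewer cells of a type and less signal per cell cannot be told apart.

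Peaks near Epcam went with the Epcam gate of the sort. Levels in CPM (counts scaled by TMM to a common library size), summed over all peaks within 50 kb of Epcam, were 193 and 203 in the Lgr5 Epcam+ samples, against 190 in K14 Epcam+, while the Lgr5 Epcam- sample had 38.2. Krt14, the basal keratin that drives the Cre of the K14 line, stood at 202 and 198 CPM in Lgr5 Epcam+, against 145 CPM in K14 Epcam+ (log2 difference 0.46 ± 0.32 SE, adjusted p = 0.958, edgeR). The Lgr5 gene itself had 53.3 and 66.3 CPM in the Lgr5 Epcam+ samples, against 56.1 CPM in K14 Epcam+, and HF had 172 CPM against 43.6 CPM in IFE. So the locus that separates the normal compartments did not separate the tumours, whose groups overlapped there. Of the markers of cells that the sort should remove, Ptprc (CD45) had 89.0 and 105 CPM in Lgr5 Epcam+, against 81.8 CPM in K14 Epcam+. Pecam1 (CD31) had 183 and 169 CPM in Lgr5 Epcam+, against 157 CPM in K14 Epcam+. Pdgfra (CD140a) had 74.3 and 69.7 CPM in Lgr5 Epcam+, against 66.8 CPM in K14 Epcam+. Peaks near these 3 genes were therefore open to a like degree in all 3 samples, and no adjusted p of edgeR for them was under 0.05.

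Tumours of the 2 origins differed from each other about as much as the 2 Lgr5 Epcam+ samples did. Per peak, the log2 difference of CPM had an SD of 0.64 for Lgr5 Epcam+ sample 1 minus K14 Epcam+ and 0.78 for sample 2 minus K14 Epcam+, against 0.74 for sample 1 minus sample 2. The share of peaks past a log2 difference of 1 was 11.0% for sample 1 minus K14 Epcam+ and 17.7% for sample 2 minus K14 Epcam+, against 15.9% between the Lgr5 Epcam+ samples. Summed per gene over 18113 genes, the shares were 3.69% and 5.15%, against 4.75% between the Lgr5 Epcam+ samples. The SD of single-end minus paired-end values within a library was 0.40, 0.41 and 0.39 in the 3 samples, so the differences between samples were larger than those between runs of a library.

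**Figure D1:**
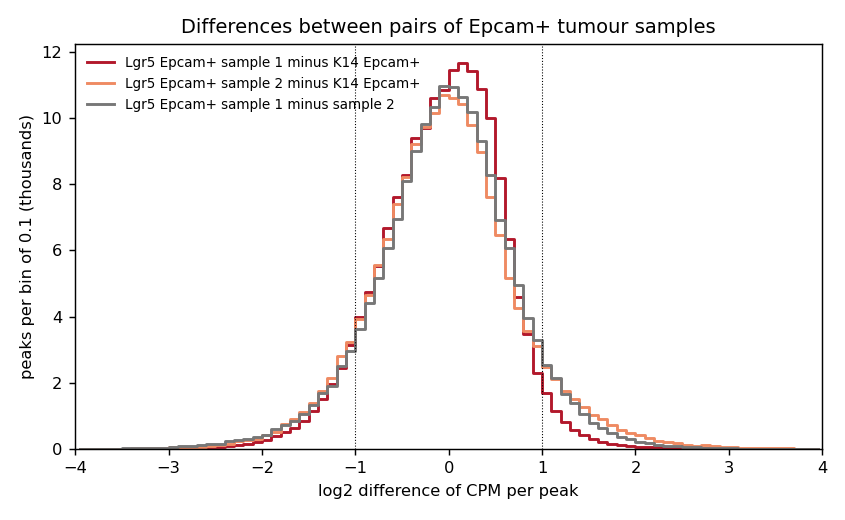
Histogram of the log2 difference of CPM per peak, in bins of 0.1, for each Lgr5 Epcam+ sample minus K14 Epcam+ and for the 2 Lgr5 Epcam+ samples against each other; dotted lines mark a log2 difference of 1 in each direction. The 3 curves largely overlap, and past the dotted lines lie 11.0% and 17.7% of peaks for the 2 origins and 15.9% for the pair of the same origin.

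The test across all peaks (edgeR's quasi-likelihood test, Benjamini-Hochberg adjustment over 177238 peaks, threshold 0.05) called 3 peaks higher in Lgr5 Epcam+ (0.00169%) and 15 lower (0.00846%). At an unadjusted p under 0.05 there were 8557 peaks. Most of the peaks called lower were nearly empty in every Lgr5 tumour sample: in 11 of the 15, neither Lgr5 Epcam+ nor Lgr5 Epcam- cells reached more than 8 counts in any sample, and in 5 no more than 1. In 12 of the 15, K14 Epcam+ was above both normal samples.

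The clearest of these lay 23 kb from Map3k7, the gene of the kinase TAK1, at chr4:32046642-32047663 (mm10). It had 0 and 0 counts in Lgr5 Epcam+, against 160 in K14 Epcam+, while Lgr5 Epcam- had 0, HF 24 and IFE 14. Taking 3 counts over the 2 Lgr5 Epcam+ samples as the floor, it was at least 124-fold lower in Lgr5 Epcam+ (adjusted p = 0.00879, edgeR). All 3 Lgr5 tumour samples were empty and all 3 others were not. Even the lowest quintile of peaks, by mean level in the Epcam+ samples, had a median of 0.984 CPM. Why counts were absent here, or nearly so at the other near-empty peaks, was not tested.

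The peak 6 kb from 1810062G17Rik (chr3:36488737-36489849) had the same form, with 1 and 1 counts in Lgr5 Epcam+, against 187 in K14 Epcam+, and 0 in Lgr5 Epcam-, 45 in HF and 104 in IFE (adjusted p = 0.00879, edgeR). K14 Epcam+ over Lgr5 Epcam+ was 217-fold there, with an exact 95% interval of 59.3 to 1807 that covers counting error only. Near Api5, whose product inhibits apoptosis, the peak chr2:94449409-94450409 had 0 and 1 counts in Lgr5 Epcam+, against 162 in K14 Epcam+, and 0, 43 and 28 in Lgr5 Epcam-, HF and IFE (adjusted p = 0.00938, edgeR). The peak 11 kb from Cxcl2, a chemokine that draws neutrophils, at chr5:90916834-90917982, had 0 and 1 counts in Lgr5 Epcam+, against 134 in K14 Epcam+ (adjusted p = 0.0117, edgeR). That peak did not carry the locus: summed over all its peaks, Cxcl2 had 100 and 62.7 CPM in Lgr5 Epcam+, against 81.0 CPM in K14 Epcam+, with groups that overlapped.

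Peaks called lower also sat close to each other. On chromosome 12, 5 of them were called, 4 of which had 5730507C01Rik, an uncharacterised gene, as their nearest gene, among them its promoter (chr12:18514039-18515068). The promoter peak had 20 and 9 counts in Lgr5 Epcam+, against 301 in K14 Epcam+, and 24, 21 and 26 in Lgr5 Epcam-, HF and IFE (log2 difference -4.60 ± 0.60 SE, adjusted p = 0.0377, edgeR). Here K14 Epcam+ stood above all 5 other samples, and HF and IFE held about as few counts as Lgr5 Epcam-. On chromosome 5, the peaks near Rint1 (chr5:23828889-23829889), which acts in traffic between the endoplasmic reticulum and the Golgi, and Tomm7 (chr5:23830932-23831932), a part of the mitochondrial import pore, lie within the same few kb. The peak near Rint1 had 0 and 0 counts in Lgr5 Epcam+, against 55 in K14 Epcam+, and 0, 49 and 71 in Lgr5 Epcam-, HF and IFE. It was at least 42.6-fold lower in Lgr5 Epcam+ by the same floor (adjusted p = 0.0277, edgeR). The peak near Tomm7 had 2 and 0 counts in Lgr5 Epcam+, against 99 in K14 Epcam+, and 0, 79 and 101 in Lgr5 Epcam-, HF and IFE (adjusted p = 0.0291, edgeR). K14 Epcam+ and both normal samples were alike at these last 2 peaks in being well above 0, and the 3 Lgr5 tumour samples were at or next to 0.

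The remaining peaks called lower held more counts in Lgr5 tumours or lay elsewhere. The peak 26 kb from Fam126a on chromosome 5 had 27 and 27 counts in Lgr5 Epcam+, against 602 in K14 Epcam+, and 93 in Lgr5 Epcam- (log2 difference -4.67 ± 0.58 SE, adjusted p = 0.0277, edgeR). Near Mrgprb13, of a family of sensory and mast cell receptors with close paralogs, counts were 5 and 7 in Lgr5 Epcam+, against 146 in K14 Epcam+. Near Gm51598 they were 5 and 3 in Lgr5 Epcam+, against 110 in K14 Epcam+, with 113 in HF and 97 in IFE. Within Syt4, a synaptotagmin, paired-end counts were 41 and 10 in Lgr5 Epcam+, against 204 in K14 Epcam+ (adjusted p = 0.0291, edgeR). The Syt4 call held in 4 of 9 alternative settings. In none of these peaks did the Lgr5 Epcam+ samples overlap K14 Epcam+, which being called by the test nearly ensures.

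Of the 3 peaks called higher, the one inside Aig1, a lipid hydrolase gene, was open at a moderate level (chr10:13837460-13838849). It had 34.0 and 29.3 CPM in Lgr5 Epcam+, against 3.83 CPM in K14 Epcam+, with 30.1 in Lgr5 Epcam-, 8.59 in HF and 3.38 in IFE (log2 difference 3.04 ± 0.40 SE, adjusted p = 0.0393, edgeR). The 3 Lgr5 tumour samples were high together and K14 Epcam+ lay between the 2 normal samples. The peak inside Ms4a20, of a family of membrane-spanning proteins, had 73 and 39 paired-end counts in Lgr5 Epcam+, against 0 in K14 Epcam+ (chr19:11120809-11121809). It was at least 14.9-fold higher in Lgr5 Epcam+ with a floor of 3 counts in K14 Epcam+ (adjusted p = 0.0277, edgeR), and K14 Epcam+ was the only one of the 6 samples without counts, HF standing at 4.16 CPM and IFE at 3.56 CPM. The Ms4a20 call held in 5 of 9 alternative settings.

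The third, 24 kb from the collagen gene Col19a1 (chr1:24612392-24613443), held 56755 and 53709 counts in Lgr5 Epcam+, against 2442 in K14 Epcam+, and 47905 in Lgr5 Epcam-, 947 in HF and 2754 in IFE (log2 difference 4.30 ± 0.14 SE, adjusted p = 1.93e-07, edgeR). The mouse assembly is known to carry a near-identical copy of mitochondrial DNA in this stretch of chromosome 1, so which sequence the reads came from is uncertain. The excess was in the paired-end runs: there the log2 difference was 4.28 and 4.60 in the 2 Lgr5 Epcam+ samples, against 0.49 and 0.84 in the single-end runs, and edgeR on single-end runs alone gave an adjusted p of 0.809, the highest of the 10 alternatives, whose lowest was 6.6e-17. Centring every library in 10 Mb windows left 1 peak higher and 0 lower past the edgeR threshold, with 4383 and 4339 peaks at an unadjusted p under 0.05. DESeq2 with its own size factors called 30 higher and 18 lower, 11 of them among the 18 of edgeR.

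**Figure D2:**
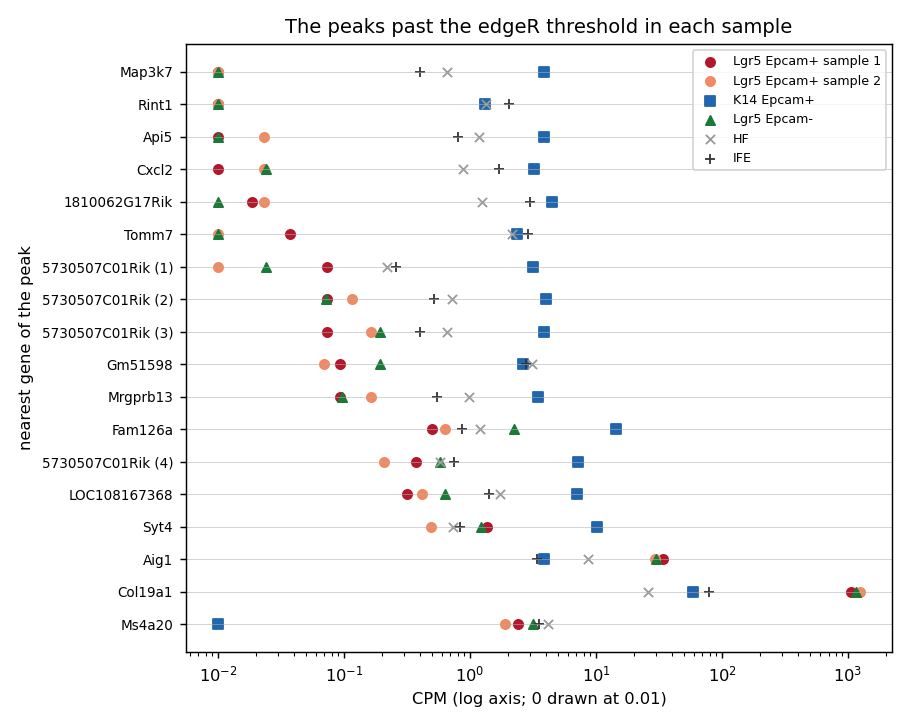
CPM on a log axis of the 18 peaks past the edgeR threshold in all 6 samples, 1 row per peak named by its nearest gene, with 0 drawn at 0.01; each point is 1 sample. Circles of Lgr5 Epcam+ and triangles of Lgr5 Epcam- lie left of the square of K14 Epcam+ in the 15 upper rows and right of it in the 3 lowest.

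Per gene, with counts summed over the peaks within 50 kb, edgeR called 1 gene higher in Lgr5 Epcam+ (0.00552% of 18111) and 7 lower (0.0387%), and 801 genes had an unadjusted p under 0.05. The gene called higher was Col19a1, through the peak above: with peaks within 10 kb alone, which leaves that peak out, its log2 difference was -0.42. Among those called lower, 5730507C01Rik had 0.592 and 0.489 CPM in Lgr5 Epcam+, against 18.3 CPM in K14 Epcam+ (log2 difference -5.07 ± 0.49 SE, adjusted p = 0.00261, edgeR). Speer3, of a testis-expressed gene family whose near-identical copies on chromosome 5 can share reads, had 0.777 and 0.816 CPM in Lgr5 Epcam+, against 11.8 CPM in K14 Epcam+ (adjusted p = 0.0120, edgeR). In both genes the 2 Lgr5 Epcam+ samples lay close together and far below K14 Epcam+. The call held in 10 of 11 alternative settings for 5730507C01Rik and in 7 of 11 for Speer3.

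Tpbpa, a marker of the placental spongiotrophoblast, had 5.24 and 3.63 CPM in Lgr5 Epcam+, against 32.0 CPM in K14 Epcam+, and 6.69, 8.21 and 7.51 CPM in Lgr5 Epcam-, HF and IFE (log2 difference -2.85 ± 0.39 SE, adjusted p = 0.0212, edgeR). K14 Epcam+ was thus the sample that stood out, the other 5 lying between 3.63 and 8.21 CPM. The Tpbpa call held in 6 of 11 alternative settings. Igsf9b, an adhesion protein of synapses, had 10.6 and 12.4 CPM in Lgr5 Epcam+, against 43.4 CPM in K14 Epcam+ (adjusted p = 0.0495, edgeR), and it lies on chromosome 9, which was lower in Lgr5 Epcam+ along most of its length. Dcstamp, a fusion protein of osteoclasts and dendritic cells, had 3.61 and 3.90 CPM in Lgr5 Epcam+, against 16.3 CPM in K14 Epcam+ (adjusted p = 0.0495, edgeR), while Lgr5 Epcam- had 18.4 CPM, so the Lgr5 tumours did not share that low level. Most alternatives lost both calls: Igsf9b passed in 3 of 11, with adjusted p-values from 0.000706 to 0.293, and Dcstamp in 3 of 10, from 0.00101 to 0.947 (edgeR and DESeq2). Within 10 kb Dcstamp had a log2 difference of -1.16. Gm51598 and Mrgprb13 were called through the peaks named above (adjusted p = 0.0120 and 0.0186, edgeR). Their calls per gene held in 6 of 10 and 5 of 10 alternative settings. With a scaling by loess on the level of the gene, 0 genes were called in either direction by edgeR, with 188 higher and 553 lower at an unadjusted p under 0.05, while DESeq2 called 9 higher and 18 lower.

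With a single K14 Epcam+ sample, a rule of size was read beside the test. A peak or gene was called apart where both Lgr5 Epcam+ samples lay on the same side of K14 Epcam+, the smaller of the 2 log2 differences was at least 1, and it was larger than the gap between the Lgr5 Epcam+ samples. No p belongs to this rule. It held for 2300 peaks higher in Lgr5 Epcam+ (1.30%) and 4707 lower (2.66%), and for 50 genes higher (0.276%) and 225 lower (1.24%). On chromosomes 1 to 14, where both runs can be read, 623 of 1662 higher peaks and 2349 of 3807 lower peaks were apart in the single-end and in the paired-end run taken alone.

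The balance between higher and lower peaks turned with the level of the peak. In the lowest quintile of mean level, with a median of 0.984 CPM, 166 peaks were higher and 1812 lower, while in the highest quintile, with a median of 15.8 CPM, 556 were higher and 20 lower. The median log2 difference over all peaks of a quintile moved the same way, from -0.49 and -0.18 (sample 1 and sample 2 minus K14 Epcam+) in the lowest quintile to 0.38 and 0.18 in the highest. K14 Epcam+ also had the lowest share of aligned entries in peaks of the 3 samples, as given above, and its part in this trend was not tested. With the trend removed by loess scaling, 53.3% of the peaks called apart were higher in Lgr5 Epcam+, against 32.8% as scaled here and 13.4% with total-count scaling. So the overall direction of the difference rests on the scaling.

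**Figure D3:**
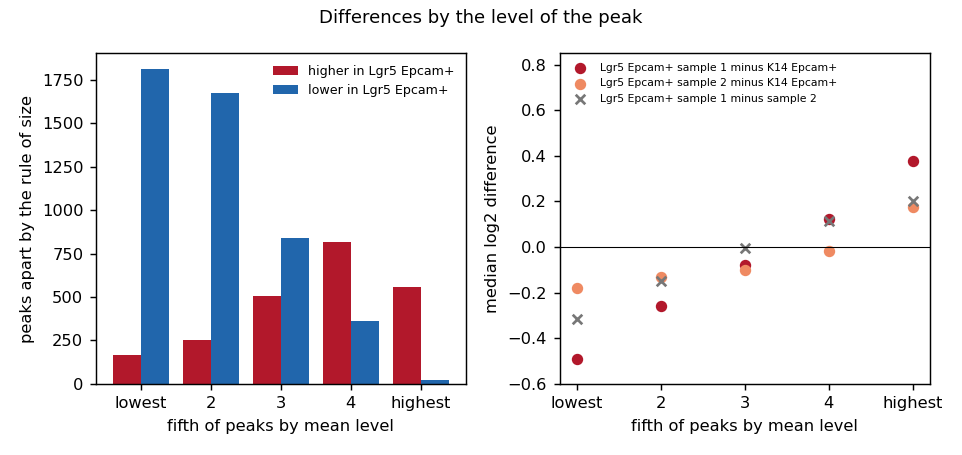
Left, number of peaks apart by the rule of size in each quintile of mean level, higher or lower in Lgr5 Epcam+; right, median log2 difference over all peaks of the quintile for the same 3 pairs of samples. Lower peaks fall in number from 1812 to 20 from the lowest to the highest quintile, and the medians climb from below to above 0 in both comparisons and in the pair of the same origin.

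Among peaks of above-median level with a gene within 50 kb, those most above K14 Epcam+ were mostly inside genes. The one in Srpk2, a kinase of splicing factors, had 18.1 and 22.9 CPM in Lgr5 Epcam+, against 0.886 CPM in K14 Epcam+, and 9.09, 3.11 and 1.40 CPM in Lgr5 Epcam-, HF and IFE (adjusted p = 0.0737, edgeR). The peak in Magi1, a scaffold of epithelial junctions, had 10.9 and 12.8 CPM in Lgr5 Epcam+, against 1.39 CPM in K14 Epcam+, and 2.22, 1.13 and 1.03 CPM in Lgr5 Epcam-, HF and IFE. The peak 33 kb from Rnf144b, a ubiquitin ligase, had 12.7 and 11.5 CPM in Lgr5 Epcam+, against 1.61 CPM in K14 Epcam+, and 1.21 CPM in Lgr5 Epcam-. In these last 2 peaks the Lgr5 Epcam+ samples stood above every other sample, and their edgeR adjusted p-values were 0.405 and 0.497. The others on the higher side lay in or near 2810021J22Rik, Mfhas1 and Qpct, besides the Col19a1 and Aig1 peaks.

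On the lower side the leading peaks were in Ptprn2, Nlgn1, Dpyd, Asic2, 1700010I14Rik and near Mmd, with those at the promoters of Ctsm and Sfmbt2 described next. In Nlgn1, a synaptic adhesion gene, the peak had 1.44 and 1.82 CPM in Lgr5 Epcam+, against 10.7 CPM in K14 Epcam+. In Asic2, an acid-sensing channel, it had 2.94 and 2.05 CPM in Lgr5 Epcam+, against 15.9 CPM in K14 Epcam+, and 1.90 and 1.98 CPM in HF and IFE. None of these 8 peaks passed edgeR, whose adjusted p for them ran from 0.293 to 0.548, and in each the Lgr5 Epcam+ samples lay below K14 Epcam+ in both runs.

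Promoters had the lowest shares of the 4 classes of peaks by place. Of 11490 peaks over a promoter, 35 were higher (0.305%) and 124 lower (1.08%) by the rule of size, against 1.61% and 3.80% of peaks more than 50 kb from any gene. Promoter peaks were also the strongest, with a median of 16.9 CPM against 2.10 CPM in the far peaks, and the SD of the 2 log2 differences over them was 0.48 and 0.49, against 0.48 for sample 1 minus sample 2. The promoter peaks of above-median level most above K14 Epcam+ belonged to Ccdc38, Il1f8 and Gpx2, and those most below to Ctsm and Sfmbt2. Their sequences are shown with that of 5730507C01Rik, the promoter that edgeR called, because on each side they lead the promoters of above-median level. Each is 300 bases from RefSeq (GRCm38.p6), 250 before to 50 after the start. Capitals mark matches on either strand. The motifs searched were TGANTCA for factors of the AP-1 family, TATAAA for the TATA box, CCAAT for the box of that name, GGGCGG for the box bound by Sp factors, called the GC box here, and GGAATG for the TEAD factors. In Ctsm each TATAAA overlaps its reverse complement, and in Sfmbt2 a CCAAT box overlaps the TEAD match. The peaks at Ccdc38 and Ctsm cover only the part of the window farthest before the start, so the matches nearest the start lie outside those 2 peaks. These promoters were chosen after their values were seen.
Ccdc38 (chr10:93554631-93554930, plus strand): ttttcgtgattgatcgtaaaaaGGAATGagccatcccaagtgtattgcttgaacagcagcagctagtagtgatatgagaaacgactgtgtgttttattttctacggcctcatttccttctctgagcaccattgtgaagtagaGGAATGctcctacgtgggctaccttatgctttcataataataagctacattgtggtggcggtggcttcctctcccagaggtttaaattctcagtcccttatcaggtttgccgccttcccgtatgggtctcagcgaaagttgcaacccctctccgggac
Il1f8 (chr2:24152922-24153221, plus strand): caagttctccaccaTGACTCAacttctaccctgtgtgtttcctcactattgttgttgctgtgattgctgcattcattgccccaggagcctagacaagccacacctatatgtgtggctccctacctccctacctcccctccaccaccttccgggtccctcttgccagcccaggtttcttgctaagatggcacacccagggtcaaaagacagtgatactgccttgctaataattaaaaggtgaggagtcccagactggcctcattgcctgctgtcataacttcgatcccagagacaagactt
Gpx2 (chr12:76795505-76795804, minus strand): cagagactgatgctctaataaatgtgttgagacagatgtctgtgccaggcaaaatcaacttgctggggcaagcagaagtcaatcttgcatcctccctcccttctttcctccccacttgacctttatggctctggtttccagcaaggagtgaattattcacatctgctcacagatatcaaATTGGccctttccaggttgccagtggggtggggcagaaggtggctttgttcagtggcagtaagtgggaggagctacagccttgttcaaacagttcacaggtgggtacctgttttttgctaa
Ctsm (chr13:61541790-61542089, minus strand): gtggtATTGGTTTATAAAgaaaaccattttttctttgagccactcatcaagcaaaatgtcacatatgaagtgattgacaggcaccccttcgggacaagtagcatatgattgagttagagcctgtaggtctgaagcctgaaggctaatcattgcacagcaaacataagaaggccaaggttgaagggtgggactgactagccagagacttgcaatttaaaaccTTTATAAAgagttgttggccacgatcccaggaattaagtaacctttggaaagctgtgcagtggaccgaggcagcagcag
Sfmbt2 (chr2:10372186-10372485, plus strand): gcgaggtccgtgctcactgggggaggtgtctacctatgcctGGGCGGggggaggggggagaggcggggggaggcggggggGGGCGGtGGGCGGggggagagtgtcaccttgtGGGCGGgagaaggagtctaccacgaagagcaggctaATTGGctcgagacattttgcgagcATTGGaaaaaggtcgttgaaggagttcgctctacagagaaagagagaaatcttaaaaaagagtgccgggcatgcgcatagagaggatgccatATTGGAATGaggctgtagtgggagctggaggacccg
5730507C01Rik (chr12:18514260-18514559, plus strand): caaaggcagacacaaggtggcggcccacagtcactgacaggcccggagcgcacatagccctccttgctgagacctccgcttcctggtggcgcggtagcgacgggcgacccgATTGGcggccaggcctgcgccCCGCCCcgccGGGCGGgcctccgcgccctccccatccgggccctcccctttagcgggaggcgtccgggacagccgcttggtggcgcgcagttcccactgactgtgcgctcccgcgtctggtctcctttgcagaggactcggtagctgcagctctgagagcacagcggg

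At Ccdc38, a gene of cilia and sperm tails, the promoter peak (chr10:93553495-93554721) had 7.86 and 10.1 CPM in Lgr5 Epcam+, against 1.20 CPM in K14 Epcam+, and 4.68 and 8.91 CPM in HF and IFE. K14 Epcam+ was the lowest of these samples. The Ccdc38 window held 2 GGAATG matches, of which only the first lies in the peak, and none to the other motifs. Il1f8, an interleukin 36 cytokine of stressed epithelium, had 7.84 and 8.39 CPM at its promoter peak (chr2:24152395-24153454) in Lgr5 Epcam+, against 1.25 CPM in K14 Epcam+. HF had 1.65 and IFE 5.56 CPM there, and its window held 1 AP-1 match. Gpx2, a glutathione peroxidase of epithelia, had 16.7 and 16.2 CPM (chr12:76794986-76796656) in Lgr5 Epcam+, against 2.64 CPM in K14 Epcam+, and 6.69 and 4.15 CPM in HF and IFE. Both Lgr5 Epcam+ samples were thus above K14 Epcam+ and above both normal samples at Gpx2. Wfdc11, a protease inhibitor gene, had 42.1 and 26.2 CPM at its promoter peak in Lgr5 Epcam+, against 6.18 CPM in K14 Epcam+, and 2.54, 1.84 and 3.07 CPM in Lgr5 Epcam-, HF and IFE, and had an adjusted p of 0.322 (edgeR). Tlr6, a receptor of bacterial lipopeptides, had 12.8 and 13.7 CPM in Lgr5 Epcam+, against 2.35 CPM in K14 Epcam+. The edgeR adjusted p was 0.504, 0.561 and 0.504 at Ccdc38, Il1f8 and Gpx2, so none passed the test.

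Ctsm, a cathepsin of the placenta, had 3.31 and 0.862 CPM at its promoter peak (chr13:61542033-61543197) in Lgr5 Epcam+, against 17.7 CPM in K14 Epcam+, and 1.82 and 1.66 CPM in HF and IFE. Sfmbt2, an imprinted Polycomb gene needed in the trophoblast, had 1.68 and 1.72 CPM (chr2:10371719-10373285) in Lgr5 Epcam+, against 8.77 CPM in K14 Epcam+, while Lgr5 Epcam- had 7.68 CPM. Ctla2a, a cathepsin inhibitor first described in activated T cells, had 2.42 and 1.21 CPM at its promoter peak in Lgr5 Epcam+, against 8.86 CPM in K14 Epcam+. In all 3, K14 Epcam+ was the highest of the 6 samples, and edgeR's adjusted p was 0.548, 0.504 and 0.663. Ctsm, Ctla2a and Tpbpa lie on chromosome 13 within a region where the median over the 10 Mb window from 60 Mb was -0.21 and -0.16, far smaller than the differences of these genes.

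Across promoters called apart, the AP-1 letters were found in 10 of the 35 windows higher in Lgr5 Epcam+ (28.6%) and 14 of the 124 lower (11.3%), against 6.08% of the 11488 windows in peaks and 7.81% of all 32841 promoter windows. The GC box letters were in 8 (22.9%) and 56 (45.2%), against 63.2% of windows in peaks and 35.7% of all. The TATA box was in 6 (17.1%) and 18 (14.5%), against 7.57% and 13.6%, the CCAAT box in 20 (57.1%) and 54 (43.5%), against 37.8% and 37.4%, and the TEAD letters in 5 (14.3%) and 14 (11.3%), against 12.4% and 14.7%. Promoters called apart in either direction were poorer in G and C, with a median of 52.0% in the higher and 53.3% in the lower, against 60.7% in all windows in peaks. These are matches of letters in 300 bases, which a peak can cover in part only, and were not tested.

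Per gene, the 8 genes of above-median level most above K14 Epcam+ were Col19a1, Bhlhe22, Speer4c, Tmprss11a, Gm21149, Sod3, Pi15 and 2610528A11Rik. Bhlhe22, a transcription factor of neurons, had 67.5 and 57.0 CPM over 5 peaks in Lgr5 Epcam+, against 17.9 CPM in K14 Epcam+, and 33.6, 10.9 and 9.94 CPM in Lgr5 Epcam-, HF and IFE (log2 difference 1.80 ± 0.31 SE, adjusted p = 0.0828, edgeR). Tmprss11a, an epithelial serine protease, had 116 and 190 CPM in Lgr5 Epcam+, against 46.9 CPM in K14 Epcam+, and 38.5, 27.4 and 33.1 CPM in Lgr5 Epcam-, HF and IFE. Sod3, the extracellular superoxide dismutase, had 70.9 and 78.9 CPM in Lgr5 Epcam+, against 29.7 CPM in K14 Epcam+. Lgr5 Epcam+ stood above K14 Epcam+ and both normal samples at these 3 genes, and edgeR's adjusted p was 0.245 for each of Tmprss11a and Sod3. Pi15, a secreted protease inhibitor, had 113 and 112 CPM in Lgr5 Epcam+, against 46.7 CPM in K14 Epcam+, and 2610528A11Rik 43.8 and 43.0 CPM in Lgr5 Epcam+, against 18.2 CPM in K14 Epcam+. Speer4c and Gm21149 lie in the repeated gene cluster of chromosome 5 that also holds Speer3, where copies can share reads: Speer4c had 64.0 and 85.3 CPM in Lgr5 Epcam+, against 25.6 CPM in K14 Epcam+, with 110.5 CPM in HF and 86.3 CPM in IFE.

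The 8 genes most below K14 Epcam+ were Fam110b, Clec2f, Klhl32, Prkcb, Ntm, Col6a5, Opcml and Gypc. Fam110b, a centrosome protein, had 38.4 and 42.8 CPM over 20 peaks in Lgr5 Epcam+, against 97.8 CPM in K14 Epcam+, and 114, 92.7 and 73.5 CPM in Lgr5 Epcam-, HF and IFE, so the Lgr5 Epcam+ samples were the lowest of the 6. Prkcb, a protein kinase C, had 23.6 and 25.8 CPM in Lgr5 Epcam+, against 54.0 CPM in K14 Epcam+. Ntm and Opcml are neighbouring neural adhesion genes on chromosome 9. Ntm had 20.8 and 26.5 CPM in Lgr5 Epcam+, against 55.4 CPM in K14 Epcam+, and Opcml 21.0 and 29.5 CPM in Lgr5 Epcam+, against 60.3 CPM in K14 Epcam+. In HF Ntm stood at 111 CPM and Opcml at 159.7 CPM. Col6a5 is also on chromosome 9 and Clec2f on chromosome 6. Centring in 10 Mb windows ended the call by the rule of size for these 4 genes: the mean difference was then -0.75 at Ntm, against -1.24, and -0.79 at Opcml, against -1.27. It was -0.65 at Clec2f, against -1.19, and -0.96 at Col6a5, against -1.13. The edgeR adjusted p of these 8 genes lay between 0.286 and 0.887, and that of Gypc, the highest, rests on the paired-end runs of chromosome 18 alone.

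Some genes held many peaks that were apart in the same direction, and they are named after their values were seen. Of 18113 genes with a peak, at least 2 peaks were higher in Lgr5 Epcam+ at 296 and at least 2 lower at 657, while 185 held peaks of both kinds. Over all peaks 1.30% were higher and 2.66% lower, and by those shares alone a gene with more peaks can hold more of either kind. On the higher side Foxp1, a forkhead factor also expressed in follicle stem cells, had 7 of 108 peaks apart, Kcnh1, a potassium channel, 8 of 40, and Bnc2, a zinc finger factor, 6 of 61, with 0 on the lower side in each. The repeats of chromosome 5 gave the highest counts, 15 of 18 peaks at Speer4d and 13 of 21 at Gm21190. On the lower side Rora, a nuclear receptor of lipid ligands, had 19 of 100 peaks apart, Dlg2, a synaptic scaffold, 16 of 99, Grin2b, an NMDA receptor subunit, 16 of 37, and Etv6, an ETS repressor, 12 of 69. All but Dlg2 of these last 4 lie on chromosomes 6 and 9, where 4.8% and 7.04% of all peaks were lower by the rule of size.

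Lower peaks and genes were frequent on chromosomes 6 and 9. Chromosomes 6 and 9 hold 11.2% of all peaks, but 24.7% of the peaks called lower by the rule of size and 5.39% of those called higher, and 61 of the 225 lower genes (27.1%) and 0 of the 50 higher ones. The median log2 difference over chromosome 9 was -0.40 and -0.39 for sample 1 and sample 2 minus K14 Epcam+, against -0.03 between the Lgr5 Epcam+ samples. On chromosome 6 the shift lay past 110 Mb: the window from 130 to 140 Mb had medians of -0.85 and -0.64, and that from 80 to 90 Mb 0.41 and 0.15. Of 271 windows of 10 Mb, 11 lay lower in both Lgr5 Epcam+ samples by at least 0.25 and by more than their gap, and 3 higher. The higher ones were 160 to 170 Mb of chromosome 2 at 0.35 and 0.37, 30 to 40 Mb of chromosome 8 at 0.27 and 0.27, and 90 to 100 Mb of chromosome Y at 1.25 and 0.89. The last holds 26 peaks and has counts although the labels give every animal as female, and where its reads come from was not tested. By contrast, chromosome 18 had -0.28 and 0.16 and chromosome 19 0.03 and -0.45, where the Lgr5 Epcam+ samples differed from each other by -0.46 and 0.47. Without chromosomes 6 and 9 the rule of size held for 2176 higher and 3546 lower peaks.

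**Figure D4:**
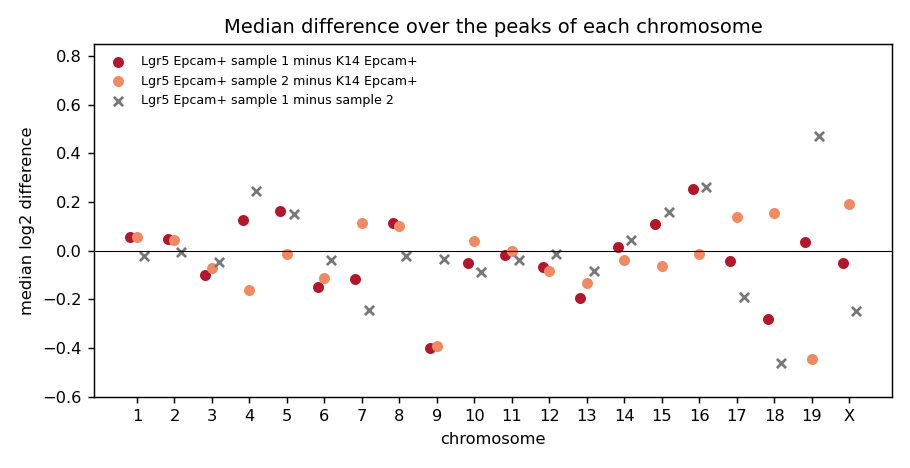
Median log2 difference over the peaks of each chromosome for each Lgr5 Epcam+ sample minus K14 Epcam+ (circles) and for the 2 Lgr5 Epcam+ samples (crosses). Chromosome 9 lies near -0.40 in both circles with its cross near 0, while on chromosomes 18 and 19 the circles part and the crosses reach -0.46 and 0.47.

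Genes with known roles were read in 21 lists of 342 genes, of which 338 had a peak; Cd8a, Fcer1g, Lyz2 and Tyr had none. No member of any list passed edgeR, and 4 were apart by the rule of size, Hoxb6, Hoxb7 and Hoxb9 on the higher side and Tyrobp on the lower. Of all 18113 genes, 50 were apart on the higher side (0.276%) and 225 on the lower (1.24%). Taken over both sides, list members were not apart more often than all genes. As the base line, over all 18113 genes the median log2 difference, averaged over both Lgr5 Epcam+ samples, was 0.12, with 44.3% of genes higher in both samples and 23.3% lower in both. That base line moves with the scaling, to 0.02 with loess and -0.05 with total-count scaling.

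Of the 21 lists, factors of the epithelial to mesenchymal transition had the highest median as scaled here, and endothelial genes the lowest (-0.22). With loess scaling simple and stress keratins had the highest, 0.38, and with peaks within 10 kb they had 0.37, against 0.35 for transition factors. As scaled here within 50 kb, 8 of the 12 transition factors were higher in both Lgr5 Epcam+ samples and 0 lower in both (median 0.44). Those 66.7% compare with 44.3% of all genes and 64.3% of housekeeping genes. An unadjusted edgeR p under 0.05 was found for 2 of the 12, against 801 of all 18111 genes, and 0 of the 12 passed the adjusted threshold. Foxc2, a forkhead factor of mesenchyme, had 44.9 and 48.9 CPM in Lgr5 Epcam+, against 25.4 CPM in K14 Epcam+, and 32.4, 21.0 and 22.9 CPM in Lgr5 Epcam-, HF and IFE (log2 difference 0.89 ± 0.29 SE, adjusted p = 0.764, edgeR). Snai2, the repressor Slug, had 57.8 and 55.3 CPM in Lgr5 Epcam+, against 34.0 CPM in K14 Epcam+. Snai1 had 175 and 176 CPM in Lgr5 Epcam+, against 109 CPM in K14 Epcam+, and the Lgr5 Epcam- sample 177 CPM. At these 3 genes the Lgr5 Epcam+ samples lay close to each other and above K14 Epcam+.

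Twist1 had 40.5 and 41.8 CPM in Lgr5 Epcam+, against 28.2 CPM in K14 Epcam+, with 58.0 CPM in Lgr5 Epcam- and 13.9 and 11.4 CPM in HF and IFE. Twist2 had 99.2 and 81.3 CPM in Lgr5 Epcam+, against 59.3 CPM in K14 Epcam+. Zeb1 had 68.1 and 111 CPM in Lgr5 Epcam+, against 68.5 CPM in K14 Epcam+, so its groups overlapped, as did those of Zeb2. With peaks within 10 kb, Zeb1 was lower in both Lgr5 Epcam+ samples, at -0.46 and -0.12. With loess scaling the list's median was 0.28, against 0.02 over all genes, with 6 of 12 higher in both, and with total-count scaling it was 0.26, against -0.05. Of 17 genes of the mesenchymal state itself, 7 were higher in both (41.2%, against 44.3% of all genes) and 4 lower in both (median 0.06). Vim, the mesenchymal intermediate filament, had 85.1 and 98.8 CPM in Lgr5 Epcam+, against 69.6 CPM in K14 Epcam+, while Cdh2, N-cadherin, had 7.59 and 14.04 CPM in Lgr5 Epcam+, against 25.2 CPM in K14 Epcam+.

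Follicle stem cell genes were mostly higher in both Lgr5 Epcam+ samples, as were lists with no tie to the follicle. Of 18, 13 were higher in both Lgr5 Epcam+ samples and 0 lower in both (72.2%, against 44.3% of all genes), with a median of 0.24. Housekeeping genes had 9 of 14 higher in both (64.3%, median 0.21), AP-1 genes 72.7% and feedback genes of the MAP kinase pathway 71.4%. Krt15 had 19.1 and 21.8 CPM in Lgr5 Epcam+, against 16.1 CPM in K14 Epcam+, and far more in the normal samples, 143 in HF and 133 in IFE. Nfatc1, a factor of bulge quiescence, had 199 and 263 CPM in Lgr5 Epcam+, against 166 CPM in K14 Epcam+. Lhx2 had 59.7 and 63.0 CPM in Lgr5 Epcam+, against 57.1 CPM in K14 Epcam+, where HF had 248 and IFE 93.6 CPM. Sox9 had 138 and 143 CPM in Lgr5 Epcam+, against 121 CPM in K14 Epcam+. With loess scaling 5 of the 18 were higher in both and 3 lower in both, with a median of 0.04, and with total-count scaling 6 and 3, so the lean of this list rests on the scaling.

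Keratinocyte genes behaved in a like manner. Of 16 basal genes 11 were higher in both and 0 lower in both (median 0.35, and 0.09 with loess scaling), and of 20 genes of epidermal differentiation 11 and 0 (median 0.21, and 0.09 with loess scaling). Krtdap, a secreted product of differentiating keratinocytes, had 80.6 and 97.2 CPM in Lgr5 Epcam+, against 40.9 CPM in K14 Epcam+ (log2 difference 1.12 ± 0.31 SE, adjusted p = 0.524, edgeR), and missed the rule of size by a smaller difference of 0.98. Krt10 had 18.6 and 30.1 CPM in Lgr5 Epcam+, against 16.7 CPM in K14 Epcam+, and 36.0 and 93.0 CPM in HF and IFE. Tgm1, the cross-linker of the cornified envelope, had 64.8 and 22.7 CPM in Lgr5 Epcam+, against 33.5 CPM in K14 Epcam+, a larger gap within the Lgr5 pair than to K14 Epcam+. Of 25 genes of epithelial identity, 9 were higher in both and 4 lower in both (median 0.05). Cdh1, E-cadherin, had 295 and 229 CPM in Lgr5 Epcam+, against 240 CPM in K14 Epcam+.

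**Figure D5:**
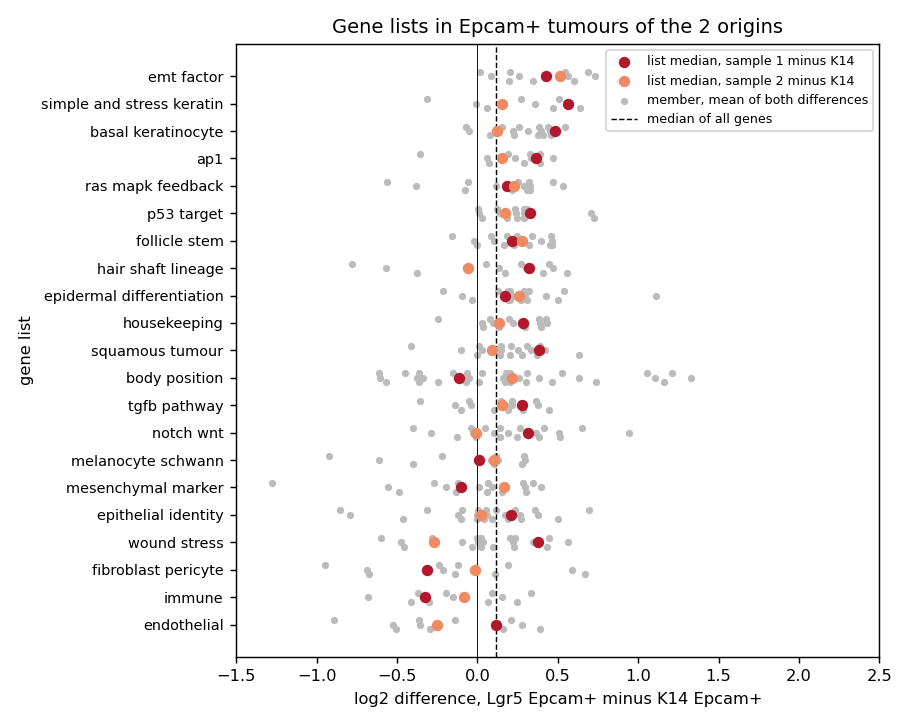
Log2 difference of Lgr5 Epcam+ minus K14 Epcam+ for 21 gene lists, ordered from the highest list median at the top: grey points are genes (mean of both differences), dark and light red points the list medians for sample 1 and sample 2, and the dashed line the median of all genes at 0.12. The factors of the epithelial to mesenchymal transition are at the top with a median of 0.44, and the body position genes past 1 are Hoxb6, Hoxb7, Hoxb9, Hoxc4 and Hoxc6.

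On the higher side, the list members apart were position genes of the Hoxb cluster. The whole list of 35 body position genes did not move one way, with 13 higher in both Lgr5 Epcam+ samples, 9 lower in both and 13 of opposite sign, and medians of -0.12 in sample 1 and 0.22 in sample 2. Hoxb7 had 35.9 and 28.8 CPM in Lgr5 Epcam+, against 12.8 CPM in K14 Epcam+, and 39.8, 27.9 and 23.0 CPM in Lgr5 Epcam-, HF and IFE (log2 difference 1.34 ± 0.32 SE, adjusted p = 0.327, edgeR). Hoxb6 had 68.7 and 53.7 CPM in Lgr5 Epcam+, against 26.3 CPM in K14 Epcam+, and Hoxb9 109 and 102 CPM in Lgr5 Epcam+, against 49.0 CPM in K14 Epcam+. K14 Epcam+ was the lowest of the 6 samples at Hoxb6 and Hoxb7, and Lgr5 Epcam+ was near or above HF. Of the 55 peaks nearest to a Hoxb gene, 47 were higher in both Lgr5 Epcam+ samples, 4 lower in both, and 19 apart on the higher side, against 1.30% of all peaks, with medians of 0.87 and 0.86. In Hoxb7 the rule of size held under each of total-count, loess and window-centred scaling, while Hoxb6 and Hoxb9 then had a smaller difference under 1. Hoxc4 and Hoxc6 were higher too, Hoxc6 with 80.8 and 58.5 CPM in Lgr5 Epcam+, against 33.0 CPM in K14 Epcam+, but the smaller difference was under 1. The labels do not say from which body site a tumour was taken, so site and origin cannot be told apart.

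As scaled here, markers of immune, endothelial and fibroblast cells were lower in both Lgr5 Epcam+ samples more often than all genes, of which 23.3% were. The shares lower in both were 53.8% of immune genes (median -0.19), 41.7% of endothelial genes (median -0.22) and 41.7% of fibroblast and pericyte genes (median -0.13). Of 13 immune genes with a peak, 3 were higher in both samples and 7 lower in both, and their summed level was 239 and 253 CPM in Lgr5 Epcam+, against 244 CPM in K14 Epcam+. Tyrobp, a signalling adaptor of myeloid and NK cells, had 0.795 and 1.21 CPM in Lgr5 Epcam+, against 3.28 CPM in K14 Epcam+ (adjusted p = 0.665, edgeR). Within 10 kb 12 of the immune genes had a peak and Tyrobp had none, so its low counts all came from farther away. Of 12 endothelial genes 5 were higher in both and 5 lower in both, with sums of 823 and 721 CPM in Lgr5 Epcam+, against 796 CPM in K14 Epcam+. Of 12 fibroblast and pericyte genes 3 and 5 were, with sums of 707 and 647 CPM in Lgr5 Epcam+, against 636 CPM in K14 Epcam+. Of 11 melanocyte and Schwann cell genes 4 were higher in both and 3 lower in both, with sums of 297 and 331 CPM in Lgr5 Epcam+, against 293 CPM in K14 Epcam+. With loess scaling the medians of immune, endothelial, and fibroblast and pericyte genes were 0.03, -0.27 and -0.18, against 0.02 over all genes. The lower median of immune genes was thus absent with that scaling. None of the markers with a peak was at 0 in any of the 3 samples, and the part of other cells in the differences above was not tested.

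The peaks that separate the normal compartments were then read in the tumours. By a rule of size on the normal samples alone (log2 of at least 2 on summed runs and at least 1 in each run), 2745 peaks were higher in HF than in IFE (1.55%) and 939 lower (0.530%). Over the peaks higher in HF, Lgr5 Epcam+ minus K14 Epcam+ had a median of -0.08 in sample 1 and 0.34 in sample 2, and the 2 Lgr5 Epcam+ samples differed by -0.45 there, more than either differed from K14 Epcam+. Both samples were above K14 Epcam+ at 39.1% of these peaks, against 31.4% of all peaks. Over the peaks lower in HF, the medians were -0.11 and -0.18, and both samples were below K14 Epcam+ at 42.5%, against 35.0% of all peaks.

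The peaks higher in HF are weak in the tumours, with a median of 1.43 CPM against 2.73 CPM over all peaks, and level itself shifts the differences as given above. Within quintiles of level, their median difference averaged over both samples was -0.17, 0.21, 0.41, 0.56 and 0.53 from the lowest to the highest, against -0.34, -0.17, -0.08, 0.05 and 0.27 over all peaks. So in each quintile the peaks higher in HF stood above all peaks of like level, while the averaged medians over the peaks lower in HF were below them, at -0.44, -0.28, -0.13, -0.01 and 0.26, the last by a margin of the second decimal only. That did not hold in sample 1 alone, whose medians over the peaks lower in HF were above those of all peaks in the upper quintiles, 0.28 against 0.12 in the fourth and 0.47 against 0.38 in the highest. With loess scaling the medians over the peaks higher in HF were 0.09 and 0.46, with 48.6% above in both samples, against 32.6% of all peaks. Without sample 2 the median over these peaks is that of sample 1, -0.08, and with total-count scaling it was -0.02 averaged over both.

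Read the other way round, of the 2300 peaks apart on the higher side in Lgr5 Epcam+, 66 were among those higher in HF (2.87%) and 8 among those lower in HF (0.348%). Of the 4707 on the lower side, 35 were higher in HF (0.744%) and 29 lower in HF (0.616%). The shares over all peaks were 1.55% higher in HF and 0.530% lower, so the last share was near that of all peaks. Among peaks of above-median level, 32 of 1653 higher peaks (1.94%) were higher in HF than in IFE, as was 1 of 708 lower peaks (0.141%). Over all peaks of that level the share was 0.770%. Peaks lower in HF showed no such split at that level. They made up 0.484% of the higher set and 0.424% of the lower set, with 0.454% as the base line. The share of peaks with any excess in HF over IFE was 61.5% in the higher and 58.8% in the lower set, both above the 50% of all peaks.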

How the data were processed

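Open chromatin was measured by ATAC-seq with the Nextera kit, per the labels' protocols, in 6 libraries with 2 sequencing runs apiece, 1 of single and 1 of paired reads. The authors deposited whole-number counts per peak over 177240 shared peaks on mm10, and the submitters' processing notes name Bowtie2, HOMER, bedtools and HTSeq, versions not given in the sources used here. No normalization had been applied. Depth was 32086654 to 62941406 counts in peaks per library, and intervals and floors cover counting error only.

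Runs were summed on chromosomes 1 to 14, and paired-end runs alone were used on the others. The 2 sets were scaled by TMM and fitted separately with edgeR 4.0.16 in R 4.3.3 (quasi-likelihood, robust, filterByExpr with a minimum count of 10, 5 groups, 1 residual degree of freedom). P-values were adjusted together by Benjamini-Hochberg at 0.05. Differences per sample are on the log2 CPM scale with a prior count of 2. A gene took the counts of all peaks nearest to its span within 50 kb, and a promoter is the RefSeq window of 250 bases before to 50 after the start, without chromosome 18. DESeq2 1.42.0 and other scalings, runs, limits and samples were tried as alternatives. Only the edgeR test per peak was run on simulated counts, with changes set in peaks of above-median level alone. Weaker changed peaks, the tests per gene and DESeq2 were not simulated.

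Named peaks and genes were those past the edgeR threshold and the 8 on each side with the largest smaller difference at above-median level, with up to 4 apart and 3 other members per list and a fixed set of markers. The members, lists and rules were chosen with earlier results of these data known, and loess scaling, single-end runs alone and the fit without chromosomes 6 and 9 were added after seeing the data. A further allele shared by all tumour samples is not reported here.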

Additional observations from a re-analysis of the deposited data

Results flagged for a closer look

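In the paired-end run of K14 Epcam+, 8.09% of all entries (4873509 entries) were listed as not aligned. The paired-end runs of the other 5 samples had 0.757% to 1.12%, and every single-end run listed 0. These entries are in no comparison, and their part in the differences between Lgr5 Epcam+ and K14 Epcam+ was not tested.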

How the results depend on the processing

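No paired analysis was possible because K14 Epcam+ is a single sample with no partner in the Lgr5 Epcam+ pair. For the values below the cause of a change was not tested. Peaks past the edgeR threshold numbered 3 higher and 15 lower. The number higher was 30 with the DESeq2 test, 5 with DESeq2 size factors, 7 with total-count scaling, 6 with paired-end runs alone, and 1 with summed runs on all chromosomes, with centring in 10 Mb windows and with single-end runs alone. The number lower was 39 with total-count scaling, 26 with paired-end runs alone and 0 with centring in windows. Genes numbered 1 higher and 7 lower. The number higher was 9 with DESeq2, 2 with the 3 Epcam+ samples alone and with centring in windows, 10 with single-end runs alone, and 0 within 10 kb (edgeR, 315 at an unadjusted p under 0.05) and with loess scaling. The number lower was 18 with DESeq2, 3 with total-count scaling, 1 with paired-end runs alone and with summed runs on all chromosomes, 2 within 10 kb, 0 with loess scaling and 30 with single-end runs alone. Without sample 1 or sample 2 these fits have no residual degree of freedom, so no test could be made. Peaks apart by the rule of size were 2300 higher and 4707 lower, against 1209 and 7825 with total-count scaling and 110 and 271 at a log2 limit of 2. The lower ones were 2405 with loess scaling and 708 at above-median level. Genes were 50 higher and 225 lower, against 31 and 343 with total-count scaling, 7 and 21 at a limit of 2, and 16 and 10 at above-median level. With summed runs on all chromosomes 81 genes were higher, and with loess scaling 141 were lower. Over peaks higher in HF the median of 0.14 was -0.0241 with total-count scaling and ran from -0.0789 to 0.340 when either Lgr5 Epcam+ sample was left out. Over peaks lower in HF the median of -0.16 was -0.324 with total-count scaling, -0.120 with loess scaling and -0.0762 at an HF against IFE limit of 1, and ran from -0.183 to -0.105 without either sample. The log2 difference of Col19a1 was -0.42 with peaks within 10 kb. A single K14 Epcam+ sample limits every comparison.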
